A study of Mus musculus with 9 samples.

Results

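The genes described here are Prss56 and 4 other genes tied to the size and refraction of the eye, Mfrp, Tmem98, Adipor1 and Crb1, measured by bulk RNA sequencing of mouse retina. They were picked by symbol from the 26683 genes of the deposited count table. Prss56, Tmem98, Adipor1 and Crb1 were analysed, 4 of the 5 named, and all 4 passed the filter on low counts that left 17362 genes. Mfrp was not analysed here. The set was chosen by its CPM in all 9 libraries, with the group differences already known, so the values of its members are given as a description and without p-values. Where a member is said to be called or not, the call rests on the values used to choose it and adds no support. CPM is a gene's count per 1000000 counts of its library.

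The study asked what retinas look like in a mouse model of retinopathy with and without a drug-releasing gel. Gel libraries (n = 3) came from retinas of mice with oxygen-induced retinopathy (OIR) that received the hydrogel labelled PCC1/PHCF in the vitreous at postnatal day 15. PBS libraries (n = 3) came from OIR mice given phosphate-buffered saline by the same route on the same day. Normoxic libraries (n = 3) came from mice raised in room air, which are not stated to have been injected. All retinas were collected at postnatal day 17. In OIR, pups breathe high oxygen, which stops vessel growth in the retina, and on return to room air the retina becomes hypoxic and grows abnormal vessels. PCC1 is procyanidin C1, a plant polyphenol named in the series title as a means of removing senescent cells. No group received a hydrogel without PCC1, so the drug and its carrier cannot be told apart, nor can OIR and injection in the comparison of PBS with Normoxic libraries. The library names of the Normoxic group begin with WT, which the labels do not spell out. Strain, sex and whether replicates are separate animals are not given in the labels, so p-values measure only the spread between these libraries.

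The length of the eye is set after birth by signals passed between the retina, the retinal pigment epithelium and the sclera. Prss56 encodes a secreted serine protease of the trypsin fold that is made by Müller glia, the supporting glia that span the retina, and its loss leaves mouse and human eyes short. Mfrp encodes a membrane protein of the pigment epithelium and ciliary body, and Tmem98 a membrane protein that binds the transcription factor Myrf; variants of either gene cause very small eyes in people. Adipor1 encodes a receptor for adiponectin that the mouse retina needs to hold the omega-3 fatty acid DHA. Crb1 encodes an apical polarity protein of the outer limiting membrane, the row of junctions between photoreceptors and Müller glia, and its human variants cause retinal dystrophies in which the eye is often farsighted.

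The promoter of Prss56 is shown because Prss56 is the member with the widest range between libraries. It holds TATATA, printed in capitals, whose first base lies 29 bases before the start of the gene in RefSeq. The 100 bases come from the RefSeq promoter table of build GRCm38.p6, plus strand, chr1:87183213-87183312, while the submitters' processing notes name GRCm39.
Prss56: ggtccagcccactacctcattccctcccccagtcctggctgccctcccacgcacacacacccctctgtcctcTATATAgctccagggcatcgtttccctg

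Motifs were searched on both strands of the full RefSeq windows of 300 bases around gene starts, of which there were 32851, so a match can lie outside the 100 bases printed. TATATA was in the Prss56 window and in none of the windows of Tmem98, Adipor1 and Crb1, against 5.67% of all windows. TTCNNNGAA, the letters bound by STAT factors, was in the Prss56 and Crb1 windows and in 8.30% of all. GGAATG, bound by TEAD factors, was in the Prss56 window, in 1 of the 2 Adipor1 windows and in 14.7% of all. ACGTG, the core of the hypoxia response element, was in the Tmem98 and Crb1 windows and in 19.6% of all. CCAAT was in windows of Tmem98, Adipor1 and Crb1 and in 37.4% of all. TATAAA (13.6% of all windows), the AP-1 letters TGANTCA (7.81%) and the EGR1 letters GCGTGGGCG (0.612%) were in none of the members' windows. These are matches of letters only.

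Libraries held 29324142 to 35663470 counts, so 1 CPM rests on 29.3 to 35.7 counts. The libraries were not equally alike within a group. On the first principal component, which carried 38.6% of the variance, Normoxic libraries lay between -43.8 and -35.8, Gel libraries at -13.3 or higher, and PBS libraries at 21.5, 11.7 and 58.3. PBS replicate 3 had 2.86% of its counts in ribosomal protein genes, against 1.16% to 1.78% in the other 8 libraries. Its genes also leaned toward short transcripts, with a Spearman correlation of -0.49 between gene length and deviation, against 0.32 in PBS replicate 1 and 0.41 in PBS replicate 2. Gel replicates 1, 2 and 3 gave 0.32, -0.29 and -0.20. The deviation is from the mean of the other libraries of the same group, so these values depend on each other. The retinal identity of the tissue was plain in each library, in which 15 rod markers summed to 63069 to 88648 CPM.

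Prss56 was high in the 3 PBS libraries and low in the other 6. It measured 16.5, 18.0 and 9.08 CPM in Gel replicates 1, 2 and 3, resting on 491, 643 and 306 counts. In PBS replicates 1, 2 and 3 it measured 76.3, 42.8 and 61.2 CPM, on 2394, 1256 and 2174 counts. In Normoxic replicates 1, 2 and 3 it measured 13.5, 14.0 and 7.09 CPM, on 397, 456 and 217 counts. Every PBS library thus lay above every Gel and every Normoxic library, while Gel and Normoxic libraries overlapped. Per length, the group means were 6.44 ± 2.12 FPKM in Gel, 26.6 ± 7.43 FPKM in PBS and 5.12 ± 1.72 FPKM in Normoxic retinas (SD, n = 3 each). On the log2 CPM scale the SD was 0.55 in Gel, 0.45 in PBS and 0.54 in Normoxic retinas.

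**Figure D1:**
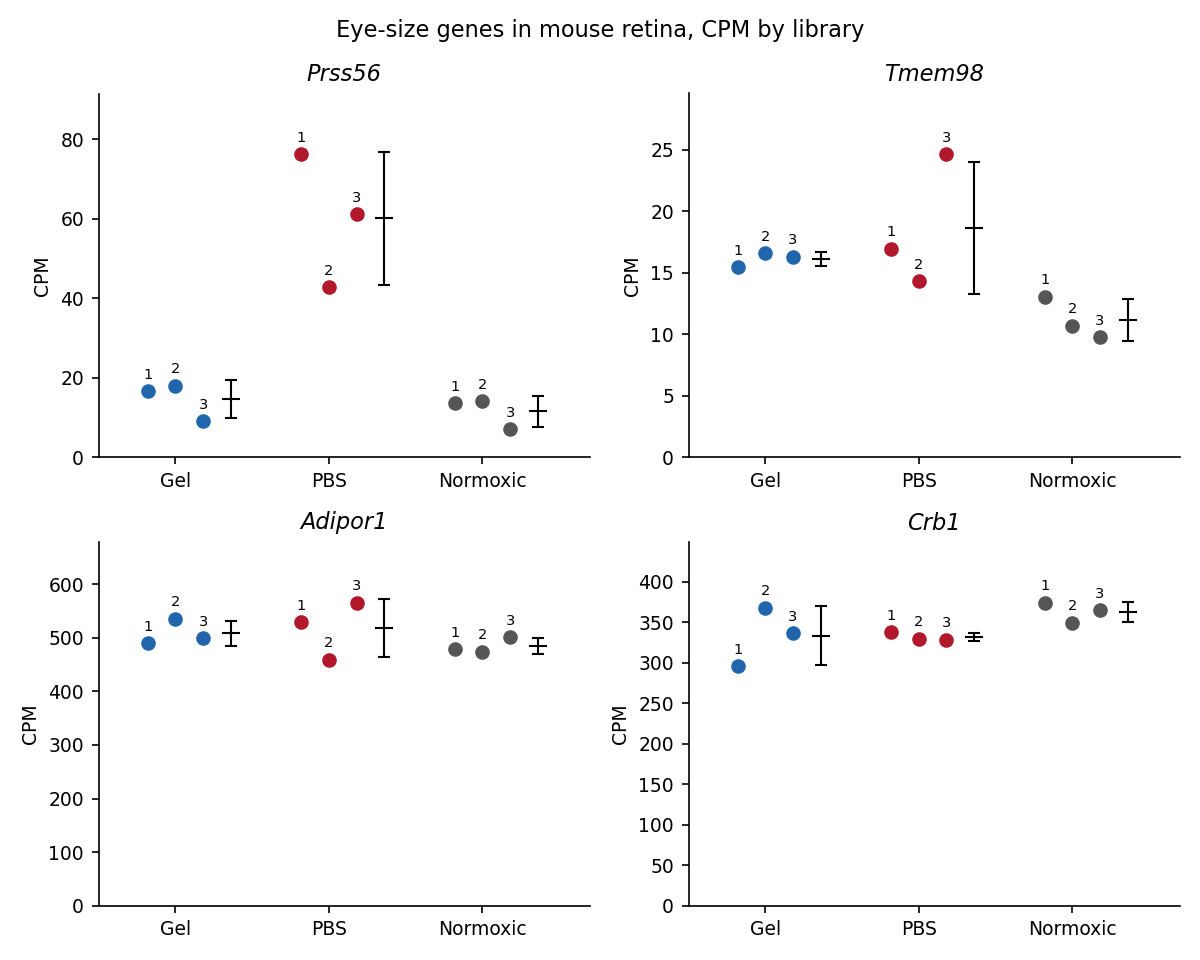
Level in CPM of Prss56, Tmem98, Adipor1 and Crb1 in each of the 9 libraries, by group (Gel, PBS, Normoxic); numbers beside points are replicates, and the black dash and bar are the mean and SD of the 3 libraries. Prss56 lies between 7.09 and 18.0 CPM in the Gel and Normoxic libraries and between 42.8 and 76.3 CPM in the PBS libraries, while Adipor1 and Crb1 lie within narrow ranges.

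Between PBS and Normoxic retinas the log2 fold change of Prss56 was 2.39 ± 0.33 (SE), a 5.26-fold higher level in PBS. It stood 66th from the top among 13484 genes, those that averaged 1 CPM or more and whose symbol is no gene model or clone name. edgeR's quasi-likelihood test called it at an adjusted p under 0.05, as it did 6.34% of all 17362 genes, and this comparison was among the values on which the gene was selected. Under the 20 alternative settings the log2 fold change ran over 2.15 to 2.60.

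Between Gel and PBS retinas the log2 fold change of Prss56 was -2.05 ± 0.32 (SE), a level 4.13-fold lower in Gel. That was the 6th lowest value among the 13484 genes. The 3 Gel libraries did not overlap the 3 PBS libraries, which was the case for 7.89% of all genes in this comparison. edgeR called 0 genes here, 0% of those tested, Prss56 included. At an unadjusted p under 0.05 it listed 961 genes, DESeq2 called 58 and limma-voom called 0. Prss56 was called under 3 of the 20 alternatives, with no filter on low counts, with DESeq2 and without PBS replicate 2. This comparison too was among the values on which the gene was selected.

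Between Gel and Normoxic retinas the log2 fold change of Prss56 was 0.35 ± 0.32 (SE), close to its own error. The Gel range of 9.08 to 18.0 CPM overlapped the Normoxic range of 7.09 to 14.0 CPM. edgeR called 1.41% of all genes in this comparison and did not call Prss56, nor did any of the 20 alternatives, in which its log2 fold change lay at 0.10 to 0.61. A missed call does not show that Gel and Normoxic retinas held the same level. The comparisons with PBS share its 3 libraries, so the rise in PBS over Normoxic and the low value of Gel over PBS are not independent of each other.

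Tmem98 was lowest in Normoxic retinas. It measured 15.5, 16.6 and 16.3 CPM in Gel replicates 1, 2 and 3, against 16.9, 14.3 and 24.6 CPM in PBS replicates 1, 2 and 3. In Normoxic replicates 1, 2 and 3 it measured 13.1, 10.7 and 9.73 CPM. All 3 Gel and all 3 PBS libraries lay above the Normoxic ones, and Gel lay within the PBS range. The mean was 11.2 ± 0.414 FPKM in Gel, 12.9 ± 3.72 FPKM in PBS and 7.74 ± 1.19 FPKM in Normoxic retinas (SD, n = 3 each).

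The log2 fold change of Tmem98 was 0.76 ± 0.21 (SE) between PBS and Normoxic retinas and 0.54 ± 0.21 between Gel and Normoxic retinas. Groups that did not overlap were common in both comparisons, at 29.0% of all genes for PBS with Normoxic and 23.9% for Gel with Normoxic. edgeR called Tmem98 in neither, while 5 of the 20 alternatives did for PBS with Normoxic, DESeq2 among them, and 2 did for Gel with Normoxic. Between Gel and PBS its log2 fold change was -0.22 ± 0.20, within about 1 SE of zero. PBS replicate 3 carried much of the PBS mean, since without it the log2 fold change was 0.47 for PBS over Normoxic and 0.07, of the opposite sign, for Gel over PBS. In the RefSeq annotation of GRCm38.p6 the gene model Gm31228 overlaps Tmem98, but it held only 1 to 10 counts in any library. No other annotated gene overlaps Prss56, Adipor1 or Crb1.

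Adipor1 was the most abundant of the 4 per length and nearly level across groups. It measured 490, 536 and 499 CPM in Gel replicates 1, 2 and 3, against 529, 459 and 566 CPM in PBS replicates 1, 2 and 3. Normoxic replicates 1, 2 and 3 gave 479, 474 and 501 CPM. The ranges of all 3 groups overlapped, and PBS was the most spread. Means were 147 ± 6.95 FPKM in Gel, 150 ± 15.8 FPKM in PBS and 141 ± 4.16 FPKM in Normoxic retinas (SD, n = 3 each). Its log2 fold change was 0.11 ± 0.12 (SE) for PBS over Normoxic, -0.03 ± 0.12 for Gel over PBS and 0.08 ± 0.12 for Gel over Normoxic. None of the 3 was called under any of the 20 alternatives.

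Crb1 measured 296, 368 and 336 CPM in Gel replicates 1, 2 and 3, against 338, 330 and 329 CPM in PBS replicates 1, 2 and 3. Normoxic replicates 1, 2 and 3 gave 375, 350 and 365 CPM. The PBS libraries all lay below the Normoxic ones by a small margin, and Gel spanned both. Means were 13.2 ± 1.44 FPKM in Gel, 13.2 ± 0.202 FPKM in PBS and 14.4 ± 0.492 FPKM in Normoxic retinas (SD, n = 3 each). Its log2 fold change was -0.12 ± 0.11 (SE) for PBS over Normoxic, 0.01 ± 0.11 for Gel over PBS and -0.11 ± 0.11 for Gel over Normoxic. With the trend of each library with gene length removed, the value for PBS over Normoxic became 0.11. Crb1 has the longest gene length of the 4 behind the deposited FPKM, at 25256 bases, and the data do not fix its direction.

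Per length, the order in PBS retinas was Adipor1, Prss56, Crb1 and Tmem98, and the Crb1 and Tmem98 means of 13.2 and 12.9 FPKM differed by less than the SD of Tmem98. In Gel retinas the order was Adipor1, Crb1, Tmem98 and Prss56. In Normoxic retinas it was also Adipor1, Crb1, Tmem98 and Prss56, so Prss56 had the lowest mean FPKM of the 4 in both of these groups. These orders rest on the 1 length per gene behind the deposited FPKM, 25256 bases for Crb1 and 2257 bases for Prss56. Whether these lengths match the transcripts made here was not tested. Without a length, Crb1 was at 329 to 338 CPM in PBS, above Prss56 at 42.8 to 76.3 CPM.

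**Figure D2:**
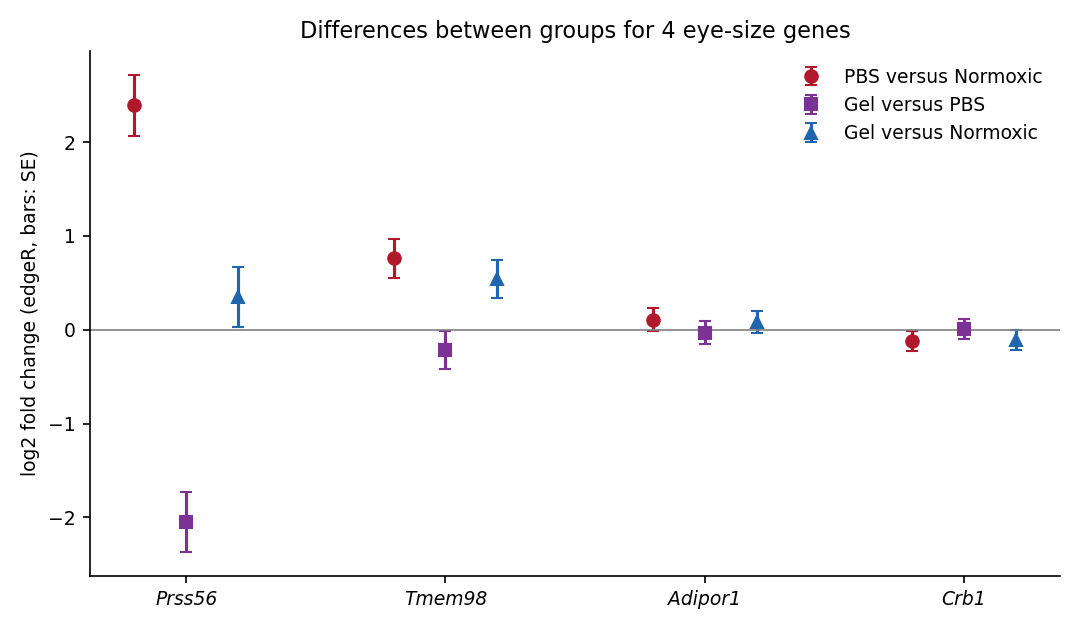
Log2 fold change of the 4 genes in 3 comparisons (PBS versus Normoxic, Gel versus PBS, Gel versus Normoxic), with the SE as bars; each is the first-named group over the second. Prss56 lies at 2.39, -2.05 and 0.35, and the values of Adipor1 and Crb1 lie within 0.12 of zero.

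Genes known to act with the members were given whatever their values. Adamts19, a secreted metalloprotease whose expression rises in mouse eyes that lack Mfrp or Prss56, measured 2.79, 2.27 and 2.31 CPM in Gel, 2.84, 6.85 and 3.71 CPM in PBS and 2.93, 2.86 and 0.85 CPM in Normoxic replicates 1, 2 and 3. PBS and Normoxic libraries overlapped, and the log2 fold change of 1.01 ± 0.43 (SE) did not pass edgeR's test (adjusted p = 0.2). Myrf, the partner of Tmem98, stayed at 2.73 to 5.27 CPM in all 9 libraries, with log2 fold changes of -0.03 ± 0.26 for PBS over Normoxic and 0.19 ± 0.26 for Gel over Normoxic (edgeR adjusted p = 0.952 and 0.801).

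Egr1, an immediate early transcription factor whose loss lengthens the mouse eye, measured 47.9, 69.9 and 29.6 CPM in Gel, 112, 43.8 and 35.7 CPM in PBS and 127, 131 and 147 CPM in Normoxic replicates 1, 2 and 3. Every Gel and PBS library lay below every Normoxic one, and PBS replicate 1 came close. The log2 fold change was -1.07 ± 0.40 (SE) for PBS over Normoxic and -1.44 ± 0.40 for Gel over Normoxic, and neither passed edgeR's test (adjusted p = 0.149 and 0.123).

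Adipor2, the second adiponectin receptor, measured 73.1 to 80.1 CPM in Gel, 64.9 to 76.5 CPM in PBS and 72.0 to 75.5 CPM in Normoxic retinas, with no call. Elovl2, which lengthens fatty acids on the way to DHA, measured 65.3, 61.3 and 70.5 CPM in Gel, 50.7, 58.0 and 66.6 CPM in PBS and 51.3, 50.1 and 47.5 CPM in Normoxic replicates 1, 2 and 3. Gel lay above Normoxic in every library, with a log2 fold change of 0.42 ± 0.12 (SE) that did not pass edgeR's test (adjusted p = 0.139). Crb2, another Crumbs protein of the outer limiting membrane, spread over 108 to 181 CPM in Gel, 77.7 to 141 CPM in PBS and 127 to 141 CPM in Normoxic retinas, with its lowest value in PBS replicate 3. Crb3, the short Crumbs paralog, was at 0.44 to 1.45 CPM.

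Among 38 kept genes of eye size and refraction, 0 rose and 1 fell in PBS against Normoxic retinas, and 14 had an unadjusted p under 0.05. Over all 17362 genes, edgeR called 6.34% in that comparison, and 3711 had an unadjusted p under 0.05. For Gel with PBS it called 0% and 961 had such a p, and for Gel with Normoxic 1.41% and 2298. These are the background for the counts of every list below. The median log2 fold change was -0.05, against 0.01 over all genes. Six3, an eye-field homeobox gene, measured 118, 125 and 78.6 CPM in PBS and 148, 167 and 164 CPM in Normoxic replicates 1, 2 and 3. These libraries did not overlap, and its log2 fold change of -0.57 ± 0.15 (SE) did not pass edgeR's test (adjusted p = 0.0522).

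Loxl3, a collagen cross-linking enzyme, had a log2 fold change of 0.53 ± 0.15 (SE) in PBS over Normoxic retinas, and Tgfb2, a growth factor, 0.31 ± 0.09. Neither passed edgeR's test, with adjusted p of 0.0644 and 0.0734. The comparisons of Gel with PBS and of Gel with Normoxic retinas called 0 of the 38 genes by edgeR, with medians of 0.03 and -0.07, and 3 and 10 genes had an unadjusted p under 0.05. Rdh5, a retinol dehydrogenase of the pigment epithelium, measured 18.0, 22.7 and 15.1 CPM in Gel and 10.5, 7.38 and 4.83 CPM in Normoxic replicates 1, 2 and 3, and its log2 fold change of 1.32 ± 0.38 did not pass (adjusted p = 0.138).

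The Crumbs complex and outer limiting membrane genes, from Pals1 and Patj to the cadherin Cdh2, gave 0 calls by edgeR among 22 kept genes in each of the 3 comparisons. At an unadjusted p under 0.05 there were 4 for PBS with Normoxic, 1 for Gel with PBS and 2 for Gel with Normoxic. The medians were -0.02, 0.04 and 0.04. Of 19 kept genes of adiponectin and omega-3 lipid handling, 1 rose in PBS against Normoxic retinas, the adiponectin-binding cadherin Cdh13, and 0 fell. Cdh13 measured 64.6, 42.3 and 61.2 CPM in PBS and 29.2, 31.7 and 31.9 CPM in Normoxic replicates 1, 2 and 3. Its log2 fold change was 0.87 ± 0.19 (SE; edgeR adjusted p = 0.0211), and the call was lost without any one Normoxic library or without PBS replicate 1, with adjusted p up to 0.0983. The list's median was 0.07 in that comparison, 0.14 for Gel over PBS and 0.08 for Gel over Normoxic, and edgeR called 0 genes in the last 2, with 3 at an unadjusted p under 0.05 in each.

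Some other proteases with the trypsin fold of Prss56 also rose in PBS against Normoxic retinas. Of 20 kept, 6 rose and 0 fell, where 6.34% of all genes were called, and the median log2 fold change was 0.34. Plat, the tissue plasminogen activator, measured 43.9, 29.0 and 42.5 CPM in PBS and 16.5, 17.0 and 16.7 CPM in Normoxic replicates 1, 2 and 3, a log2 fold change of 1.22 ± 0.17 (SE; edgeR adjusted p = 0.00237). Plau, the urokinase plasminogen activator, was at 1.59, 0.68 and 0.59 CPM in PBS and at no more than 0.15 CPM in any Normoxic library, too few counts for a firm ratio.

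Prss35 measured 4.08, 1.53 and 2.05 CPM in PBS and 0.31, 0.52 and 0.46 CPM in Normoxic replicates 1, 2 and 3. Its log2 fold change was 2.57 ± 0.44 (SE), the one in this list closest to that of Prss56 (edgeR adjusted p = 0.00658). Prss23 rose by 1.05 ± 0.18, Htra1, a secreted protease that acts on matrix proteins, by 0.83 ± 0.15 and the complement protease C1ra by 2.19 ± 0.37, with edgeR adjusted p of 0.00624, 0.00812 and 0.00604. C1ra has a near-identical copy, C1rb, with which the counting may have split its reads. Without Normoxic replicate 1 the calls of Htra1 (adjusted p = 0.0506) and Plau (0.0718) were lost, and that of Plau also without Normoxic replicate 3 (0.0729).

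In Gel against Normoxic retinas 3 of the 20 proteases rose and 0 fell, where 1.41% of all genes were called. Plat was higher by 0.89 ± 0.17 (SE), C1ra by 1.89 ± 0.37 and Htra1 by 0.69 ± 0.15 (edgeR adjusted p = 0.0291, 0.034 and 0.0477). All 3 calls were lost without Gel replicate 2 or 3 or any one Normoxic library. Those of C1ra and Htra1 were also lost with limma-voom. Of the 20 alternatives, 5 lost the call of Plat, 7 that of C1ra and 10 that of Htra1. Prss56 was at 0.35 ± 0.32 there. In Gel against PBS retinas edgeR called 0 of the 20, with 3 at an unadjusted p under 0.05, and the median was 0.02, while Prss56 was at -2.05. Gel and PBS values of Plat, at 27.3, 32.6 and 32.5 CPM in Gel against 43.9, 29.0 and 42.5 CPM in PBS replicates 1, 2 and 3, overlapped.

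Since Prss56 is a Müller glia gene, genes tied to Müller glia and their reactivity were set beside it. In bulk retina these values do not show which cells made the RNA. The lists were chosen with earlier results of these data known. All 19 kept genes of Müller glia reactivity rose in PBS against Normoxic retinas, where 6.34% of all genes were called in either direction. Their median log2 fold change was 2.54, next to 2.39 for Prss56. Their summed level was 896, 996 and 1075 CPM in Gel, 2344, 1349 and 1477 CPM in PBS and 483, 500 and 436 CPM in Normoxic replicates 1, 2 and 3, and no marker of the list was at 0 in any library. In Gel against Normoxic retinas 10 of the 19 rose, with a median of 1.79, while Prss56 stood at 0.35. The count was 6 without Normoxic replicate 1 or 2. Of all genes, 1.41% were called in that comparison. In Gel against PBS retinas edgeR called 0 of the 19, with 16 at an unadjusted p under 0.05 and a median of -0.83.

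Gfap, the filament protein that marks reactive glia, shows a contrast with Prss56 that not every gene of the list shared. It measured 89.2, 123 and 105 CPM in Gel, 367, 206 and 223 CPM in PBS and 17.5, 27.5 and 20.1 CPM in Normoxic replicates 1, 2 and 3, so the 3 groups did not overlap. Its log2 fold change was 3.62 ± 0.26 (SE) for PBS over Normoxic and 2.29 ± 0.25 for Gel over Normoxic (edgeR adjusted p = 0.000132 and 0.00187), and -1.33 ± 0.24 for Gel over PBS (0.299). Gel libraries thus lay between the other groups for Gfap and overlapped Normoxic for Prss56. Serpina3n, a protease inhibitor of reactive glia, also lay between, at 19.9, 20.2 and 23.9 CPM in Gel, 120, 42.7 and 45.2 CPM in PBS and 2.32, 3.01 and 1.89 CPM in Normoxic replicates 1, 2 and 3. Socs3 overlapped as Prss56 did, at 7.74, 4.26 and 7.80 CPM in Gel and 4.16, 4.49 and 2.84 CPM in Normoxic replicates 1, 2 and 3. Lcn2 had a higher mean in Gel (38.8 CPM) than in PBS (15.6 CPM). Means of Tgfbi were close, at 6.70 CPM in Gel and 6.80 CPM in PBS.

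**Figure D3:**
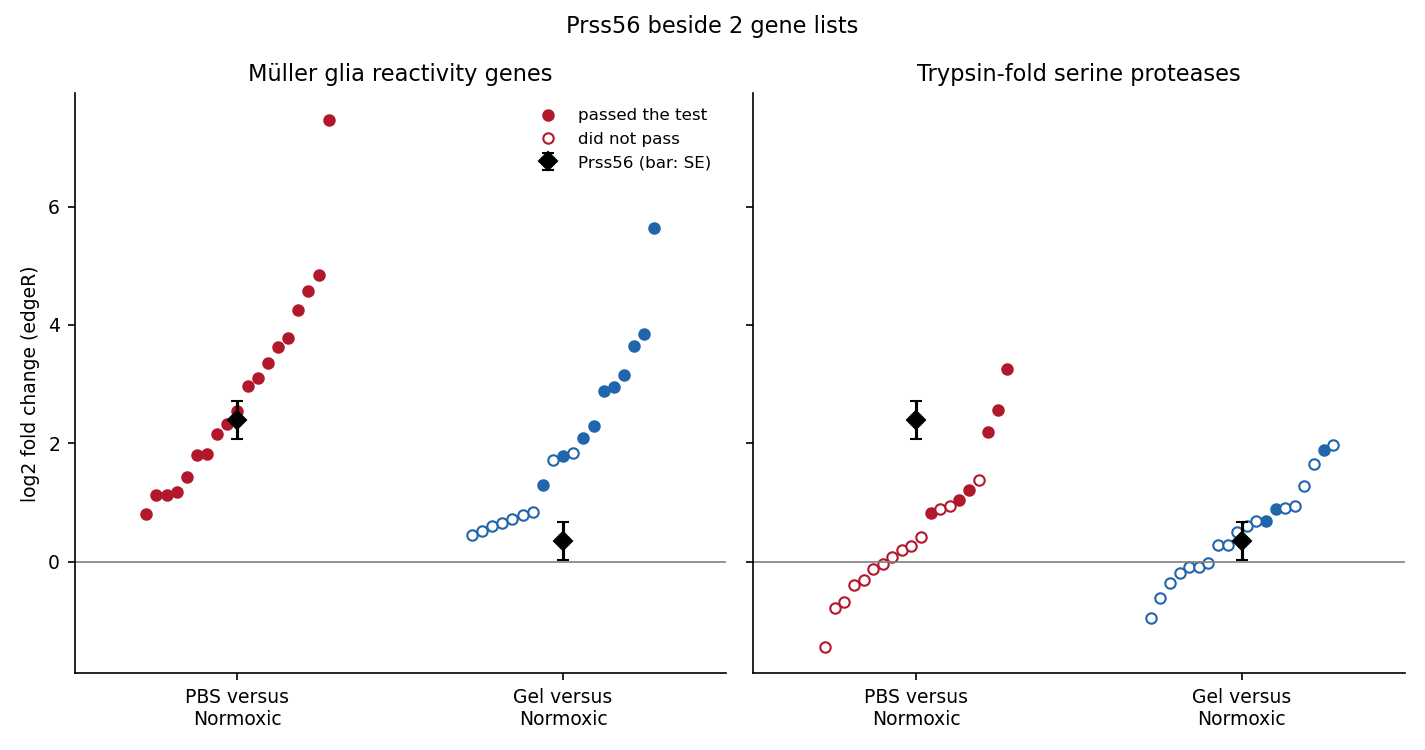
Log2 fold change of 19 Müller glia reactivity genes (left) and 20 trypsin-fold proteases (right) for PBS versus Normoxic (red) and Gel versus Normoxic (blue); filled circles passed edgeR's test, open ones did not, and the black diamond with SE bar is Prss56, which belongs to neither list. Prss56 lies near the middle of the reactivity genes at 2.39 in PBS and below all of them at 0.35 in Gel.

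Of 14 markers of Müller glia in their resting state, 1 rose (Aldh1a1) and 2 fell (Aqp4 and Kcnj10) in PBS against Normoxic retinas, with a median of 0.01. The call of Kcnj10 was lost under 15 of the 20 alternatives (adjusted p up to 0.198) and that of Aldh1a1 under 7 (up to 0.143). The summed level of the 14 ran over 5195 to 6755 CPM in Gel, 4644 to 6429 CPM in PBS and 5496 to 5996 CPM in Normoxic libraries. In bulk retina, fewer cells of a type and less RNA per cell cannot be told apart, and this holds for each gene named here.

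Cells beside the retina also express members of the set, and the amount of their RNA varied. The 20 pigment epithelium markers summed to 278, 363 and 270 CPM in Gel, 215, 199 and 471 CPM in PBS and 228, 160 and 118 CPM in Normoxic replicates 1, 2 and 3. PBS replicate 3, with the highest sum, also had the highest Tmem98, and Normoxic replicate 3, with the lowest sum, the lowest. Between these extremes the order did not hold throughout. Gel replicate 2, with a sum of 363 CPM, had Tmem98 at 16.6 CPM, and PBS replicate 1, with 215 CPM, had it at 16.9 CPM. Of the 20, 1 rose in PBS against Normoxic retinas, and none was at 0 in any library. Rpe65, the visual cycle enzyme that defines this epithelium, measured 13.5, 14.4 and 11.3 CPM in Gel, 3.98, 4.53 and 9.65 CPM in PBS and 5.87, 2.31 and 0.52 CPM in Normoxic replicates 1, 2 and 3. The part of the pigment epithelium in the Tmem98 values was not tested. Markers of the list differed in their order. Rpe65 was at its highest in the Gel libraries, where Prss56 was low. The mean of Dct was 25.9 CPM in Gel and 39.4 CPM in PBS, with 78.6 CPM in PBS replicate 3. The part of the pigment epithelium in the Prss56 values was not tested either.

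The 4 ciliary body markers summed to 12.5 to 30.6 CPM in Gel, 26.6 to 33.9 CPM in PBS and 16.7 to 30.6 CPM in Normoxic libraries, and edgeR called 0 of them in each comparison, with 0 at an unadjusted p under 0.05. Fibroblast and scleral markers summed to 108 to 151 CPM in Gel, 165 to 188 CPM in PBS and 99.9 to 134 CPM in Normoxic libraries, so their PBS libraries were the highest, as for Prss56. Prelp made up the largest part of these sums, at 54.1 to 59.5 CPM in Gel, 64.8 to 79.4 CPM in PBS and 55.9 to 62.7 CPM in Normoxic libraries. Of the 7 kept, 3 rose in PBS against Normoxic retinas (Col3a1, Pdgfra and Col1a1). Dcn, Lum and Chad were at 0 counts in at least 1 library and at no more than 0.34 CPM in any. The part of fibroblasts or sclera in the Prss56 values was not tested. Microglia and macrophage markers rose in 9 of 13 cases in PBS and in 6 of 13 in Gel, each against Normoxic retinas. Of all genes, 6.34% and 1.41% were called in these comparisons. The microglia and macrophage markers summed to 137 to 185 CPM in Gel, 189 to 283 CPM in PBS and 72.9 to 83.5 CPM in Normoxic libraries. In PBS against Normoxic retinas 6 of 10 endothelial markers rose and 1 fell, and 1 of 6 kept lens markers fell (Bfsp2). There edgeR called 0 of 15 rod and 0 of 5 oligodendrocyte markers, with 2 and 0 at an unadjusted p under 0.05.

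The genes whose log2 CPM over the 9 libraries was most like that of Prss56, among 13483 compared, were Prkcd (Pearson r = 0.952), Tead2 (0.946), Aebp1 (0.946), Tagln (0.941), Abhd11 (0.924), Trim14 (0.92), Efemp2 (0.92) and Phldb2 (0.92). These are the top of a long list over 9 libraries that share 3 groups, and r measures shape and not size. Tagln, an actin-binding protein of smooth muscle and contractile cells, measured 3.50, 5.41 and 3.94 CPM in Gel, 17.7, 10.6 and 17.5 CPM in PBS and 2.66, 3.78 and 3.17 CPM in Normoxic replicates 1, 2 and 3. Aebp1, an extracellular matrix protein, measured 8.52, 8.66 and 8.31 CPM in Gel, 18.3, 12.4 and 12.3 CPM in PBS and 8.18, 9.01 and 7.15 CPM in Normoxic replicates 1, 2 and 3. Tead2, a transcription factor of the Hippo pathway, covered a much narrower range, at 7.65 to 9.02 CPM in Gel, 9.88 to 11.8 CPM in PBS and 7.28 to 9.51 CPM in Normoxic libraries.

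The genes least like Prss56 were Trhde (r = -0.961), Vgf (-0.952), Med14 (-0.949) and Plcb1 (-0.949). Vgf, a secreted neuropeptide precursor, measured 31.9, 42.2 and 45.9 CPM in Gel, 17.9, 20.5 and 13.9 CPM in PBS and 33.6, 38.1 and 53.1 CPM in Normoxic replicates 1, 2 and 3. Its PBS libraries lay below all others, the mirror of Prss56. The genes most like Tmem98 were Rbm18 (r = 0.983), Nfyb (0.976) and Tcn2 (0.972), those most like Adipor1 were Polr2e (0.961), Thap4 (0.956) and Chchd5 (0.955), and those most like Crb1 were Slc35b4 (0.937), Trmt10b (0.927) and Vps41 (0.905). The lists of the 4 members had no gene in common, which says little since the lists are short. Between the members themselves r was 0.71 for Tmem98 with Adipor1 and 0.67 for Prss56 with Tmem98. For the other pairs it ran from -0.27 to 0.38.

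**Figure D4:**
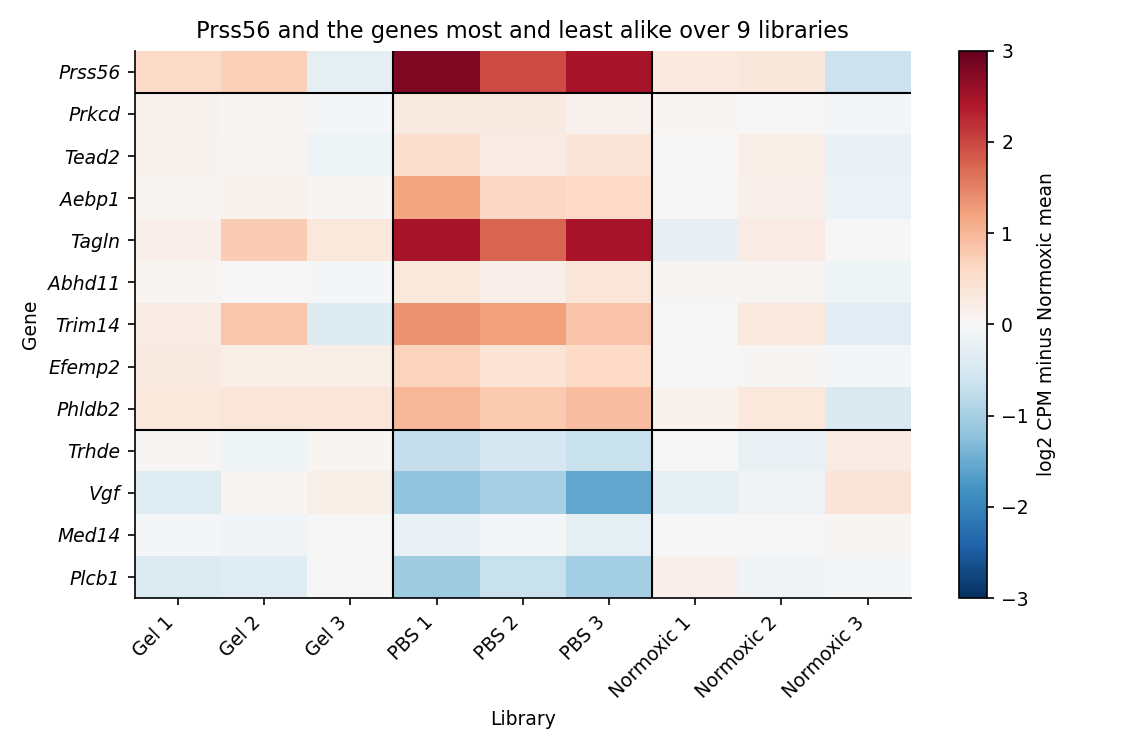
Log2 CPM minus the mean of the Normoxic libraries (colour) for Prss56, the 8 genes most like it and the 4 least like it (rows) in the 9 libraries (columns: Gel, PBS, Normoxic). The alike genes are higher in every PBS library than in the other libraries, but by unlike amounts. Tagln has the range nearest to that of Prss56, with a log2 fold change of 2.27 for PBS over Normoxic. Prkcd (0.24), Abhd11 (0.29) and Tead2 (0.39) differ little, so their colour in PBS is faint.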

How the data were processed

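Whole-number counts per gene and an FPKM table were deposited by the authors. The submitters' processing notes name Bowtie2, RSEM 1.3.1, DESeq2 1.4.5 and GRCm39, with no roles. Whether RSEM estimates were rounded to give the counts is not stated in the labels. The deposited FPKM equals the count over the library total and 1 length per gene, and served for levels per length and for an alternative.

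Counts were analysed in R 4.3.3 with edgeR 4.0.16 (filterByExpr at a minimum count of 10, TMM scaling, quasi-likelihood test, group as the only term, 9 libraries, Benjamini-Hochberg adjustment over 17362 genes, threshold 0.05). DESeq2 1.42.0 and limma 3.58.1 were alternatives. The procedure was tested on simulated data. Likeness used log2 CPM with a prior count of 2 over genes averaging 1 CPM or more. Symbols of gene models or clones were left out of it and of the ranks. The counts are the depth behind each value, and no batch term was used because the labels give 1 batch.

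The members and lists were chosen with earlier results of these data known. Named were the members, their listed partners, up to 4 genes per list with the smallest p in a comparison, and the genes most and least like a member. Genes named in the sentences on marker lists include others, chosen after their values were seen. Of the listed symbols, 5 were not analysed here, and a few genes counted in the lists are not reported by name here.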

Additional observations from a re-analysis of the deposited data

How the results depend on the processing

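The log2 fold change of Crb1 in PBS over Normoxic was 0.11 when the length trend was removed, against -0.12. Without PBS replicate 3 that of Tmem98 was 0.47 in PBS over Normoxic, against 0.76, and 0.07 in Gel over PBS, against -0.22. The count of genes called for PBS with Normoxic was 1101 and became 1863 with DESeq2, and 455 to 1184 with 1 library left out, the lowest without a Normoxic library, where the share of higher calls was 78.1% to 82.0% against 67.9%. For Gel with PBS it was 0 and became 24 with no filter, 58 with DESeq2, 3 with the length trend removed and 0 to 12 with 1 library left out. For Gel with Normoxic it was 245 and became 389 with no filter, 769 with DESeq2, 643 with only the 2 groups compared, 436 with the length trend removed and 47 to 735 with 1 library left out, the highest without PBS replicate 3. The cause was not tested. The labels do not say whether replicate numbers shared by the groups pair the samples. Correlations of same-numbered libraries were -0.07, -0.06 and -0.05 for PBS with Normoxic, 0.33, -0.21 and 0.36 for Gel with PBS and -0.08, -0.04 and -0.10 for Gel with Normoxic. For Gel with PBS those of libraries with unlike numbers ran from -0.51 to 0.31, so the values do not settle it. With the replicate number as a block the counts were 1050, 0 and 227. Prss56 at its lowest rested on 217 counts, so depth limits it less than the spread of 3 libraries does.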
